A study of Mus musculus with 21 samples.

Results

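Genes that interferons switch on, among them the families of large GTPases that act against pathogens inside the cell, were followed through a resolving peritonitis in the mouse. The set was a written list of 39 genes, taken by name and not by their values. A gene was represented by the probe set that carries its symbol alone and has the highest mean signal over the 21 arrays, and 37 of the 39 had such a probe set, out of 18194 genes on the array. Isg15 was left out because its probe set carries several symbols, and Ifi44, for which no probe set had its symbol alone, was not analysed here. All 37 passed the filter on low signal (above 80.554, the median of the whole table, in at least 3 arrays), which left 12169 genes to test.

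The cells came from female C57BL/6 mice aged 7 to 8 weeks and were purified on a cell sorter, with 3 arrays in each of 7 groups. Untreated mice gave monocytes of the bone marrow, sorted as Ly-6B+ and Ly-6G-, and the resident macrophages of the peritoneum, sorted for high F4/80 and CD11b. Mice injected in the peritoneum with zymosan, particles of yeast cell wall that phagocytes ingest, gave Ly-6B+ Ly-6G- monocytes at 4 h, Ly-6B+/low Ly-6G- monocyte/macrophages at 18 h and F4/80+ CD11b+ macrophages at 72 h. At 168 h the macrophages were sorted into Ly-6B+ cells with medium to high F4/80 and Ly-6B- cells with high F4/80. The labels name no gene deletion or transgene. Peritoneal cells were washed out of the cavity, and marrow was flushed from bone with lysis of red cells, so tissue and preparation differ together. The labels call the arrays of a group biological replicates and do not say whether animals were pooled, so each p-value measures only the spread between these samples. The groups of 4 h to 168 h all had zymosan and differ from one another in gate and time, the 168 h groups in gate alone. The untreated groups differ from them in treatment as well, and from each other in gate and tissue. Most comparisons thus join gate with time, treatment or tissue. In sorted bulk RNA fewer cells of a type and less RNA per cell cannot be told apart.

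Type I interferons signal through the receptor chains Ifnar1 and Ifnar2 to a complex that holds Stat2 and Irf9 and binds the interferon-stimulated response element (ISRE). Interferon gamma signals through Ifngr1 and Ifngr2 to factors that bind the gamma-activated site (GAS), and the guanylate-binding proteins (GBP) and immunity-related GTPases (IRG) are known as genes that answer strongly to it. The products of these genes cut or edit foreign RNA, starve viruses of nucleotides, tag proteins with Isg15, block virus entry, or gather on the vacuoles of bacteria and parasites. Monocytes in the bone marrow are known to carry a resting level of such transcripts.

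Promoter sequences from RefSeq (build GRCm38.p6, 250 bases before to 50 after a gene's start) were on hand for 30 of the 39 genes, with 38 promoters among them. Zbp1, Parp14, Usp18, Parp9, Gbp8, Dhx58, Mx1, Oas2 and Mx2 had no entry. The ISRE core, spelled GAAA, any 2 bases, GAAA and read on both strands, was found in a promoter of 15 of the 30 genes (50%), against 3.99% of all 27025 genes with a promoter and 3.44% of all 32851 promoters of the same length. The GAS core, spelled TTC, any 3 bases, GAA, which reads the same on both strands, was found in 10 of the 30 genes (33.3%), against 9.55% of all genes and 8.3% of all promoters. An ISRE match overlapped a GAS match in Bst2 and Ifitm3. A match describes letters in this window and is neither a binding site nor a cause. Of the 28 genes with both a promoter and array values, an ISRE core stood in 8 of 19 whose highest mean signal was at 4 h, in 3 of 5 highest in bone marrow and in 3 of 4 highest elsewhere. The GAS core stood in 8 of the 19, in 1 of the 5 and in 1 of the 4. The promoters printed here belong to genes on which the results turn and were chosen after the values were seen. Letters in capitals mark the motif matches, and the gene runs from left to right. Ifit3 (chr19:34583279-34583578, plus strand) has 2 ISRE cores, and Gbp2 (chr3:142620413-142620712, plus strand) has 1. In Irgm1 (chr11:48871371-48871670, minus strand) 2 ISRE cores overlap close to the start. Igtp (chr11:58199306-58199605, plus strand) has a GAS core beside an ISRE core. The first of 3 Isg20 promoters (chr7:78913174-78913473, plus strand) has a GAS core and no ISRE core.
Ifit3: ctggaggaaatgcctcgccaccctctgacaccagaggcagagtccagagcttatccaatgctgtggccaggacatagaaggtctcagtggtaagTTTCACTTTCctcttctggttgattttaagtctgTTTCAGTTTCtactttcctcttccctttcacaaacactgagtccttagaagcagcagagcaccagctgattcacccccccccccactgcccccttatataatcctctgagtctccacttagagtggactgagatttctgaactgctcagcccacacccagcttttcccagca
Gbp2: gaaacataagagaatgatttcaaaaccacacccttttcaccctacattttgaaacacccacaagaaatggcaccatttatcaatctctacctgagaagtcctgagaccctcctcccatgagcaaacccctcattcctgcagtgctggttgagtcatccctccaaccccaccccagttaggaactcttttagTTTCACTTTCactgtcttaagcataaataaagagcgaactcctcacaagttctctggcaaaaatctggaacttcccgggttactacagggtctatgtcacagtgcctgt
Irgm1: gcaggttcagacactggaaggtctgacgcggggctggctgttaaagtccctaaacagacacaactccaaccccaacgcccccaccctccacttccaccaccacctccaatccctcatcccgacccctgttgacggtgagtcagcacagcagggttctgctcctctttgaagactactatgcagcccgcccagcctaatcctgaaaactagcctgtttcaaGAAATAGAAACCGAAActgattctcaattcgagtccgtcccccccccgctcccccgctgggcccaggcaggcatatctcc
Igtp: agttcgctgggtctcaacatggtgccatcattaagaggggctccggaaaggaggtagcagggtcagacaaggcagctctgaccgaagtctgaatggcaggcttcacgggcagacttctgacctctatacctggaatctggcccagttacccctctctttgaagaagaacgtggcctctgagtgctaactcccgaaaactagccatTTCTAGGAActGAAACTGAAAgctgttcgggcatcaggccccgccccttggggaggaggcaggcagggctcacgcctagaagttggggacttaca
Isg20: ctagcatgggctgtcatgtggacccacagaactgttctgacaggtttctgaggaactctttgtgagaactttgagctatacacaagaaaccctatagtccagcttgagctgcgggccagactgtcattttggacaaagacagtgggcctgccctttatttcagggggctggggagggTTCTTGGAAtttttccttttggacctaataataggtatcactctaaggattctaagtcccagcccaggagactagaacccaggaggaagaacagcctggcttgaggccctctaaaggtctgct

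Values in the text are the authors' array signals on a linear scale, given for replicates 1, 2 and 3 in that order or as mean ± SD (n = 3). Differences between groups are on the scale of log2(signal + 15) with their standard error, and they understate the change of dim genes. A gene rose or fell where limma's Benjamini-Hochberg adjusted p was under 0.05 over all genes tested and the difference was at least 1, which is a doubling. The median signal per array lay between 67.3 and 93.0. Markers of resident macrophages summed to between 4961 and 6281 in bone marrow and between 225537 and 243135 in the resident group, and those of classical monocytes to between 109913 and 114700 and between 7346 and 7623. Some arrays stood apart. Neutrophil markers summed to between 71790.1 and 218189 in bone marrow and to at most 10404 at 4 h, and B cell and mast cell markers reached 8783 and 6459 in replicate 2 of 72 h, against at most 810.2 and 355 in its other arrays. Replicate 1 of 4 h was high for the guanylate-binding proteins, as given with them. Genes listed for handling stress went both ways. Fosb and Jun read 5888 ± 327 and 16091 ± 5147 in bone marrow against 242 ± 92.2 and 7859 ± 200 at 4 h. Junb and Egr1 read 3141 ± 570 and 5347 ± 4548 in bone marrow against 6310 ± 1410 and 8029 ± 2216 at 4 h. The part of handling in the results was not tested. Plasmacytoid dendritic cells are known as strong makers of type I interferon, and their 7 markers summed to between 1202 and 2704 over all 21 arrays. Among them Tcf4 read 611 to 1856, Klk1 179 to 528, Spib 57.6 to 522 and Cox6a2 77.2 to 187. Siglech, Ccr9 and Pacsin1 reached at most 83.9, 69.7 and 86.7, so the sum does not show that such cells were present. What neutrophils, B cells, mast cells and plasmacytoid dendritic cells contributed to the interferon-stimulated genes was not tested.

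Across the 7 groups 32 of the 37 genes differed in limma's F test, beside 69.8% of all genes tested. The median span between a gene's highest and lowest group was 1.34 on the log2 scale for the set and 1.04 for all genes. The 4 h monocytes held the highest mean of 24 of the 37 genes and of 19.1% of all genes. Bone marrow monocytes held the highest mean of 8 genes, beside 23.6% of all genes, and also the lowest of 15, beside 18.7%. The other 5 were Gbp3, Gbp8 and Trim25, highest in Ly-6B+ macrophages of 168 h, Gbp2 at 72 h and Bst2 in Ly-6B- macrophages of 168 h. Ifit1, Trim25, Dtx3l, Ifitm3 and Bst2 did not pass the F test, with adjusted p of 0.0925, 0.624, 0.352, 0.0967 and 0.291. The heat map of centred signals shows these courses side by side.

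**Figure D1:**
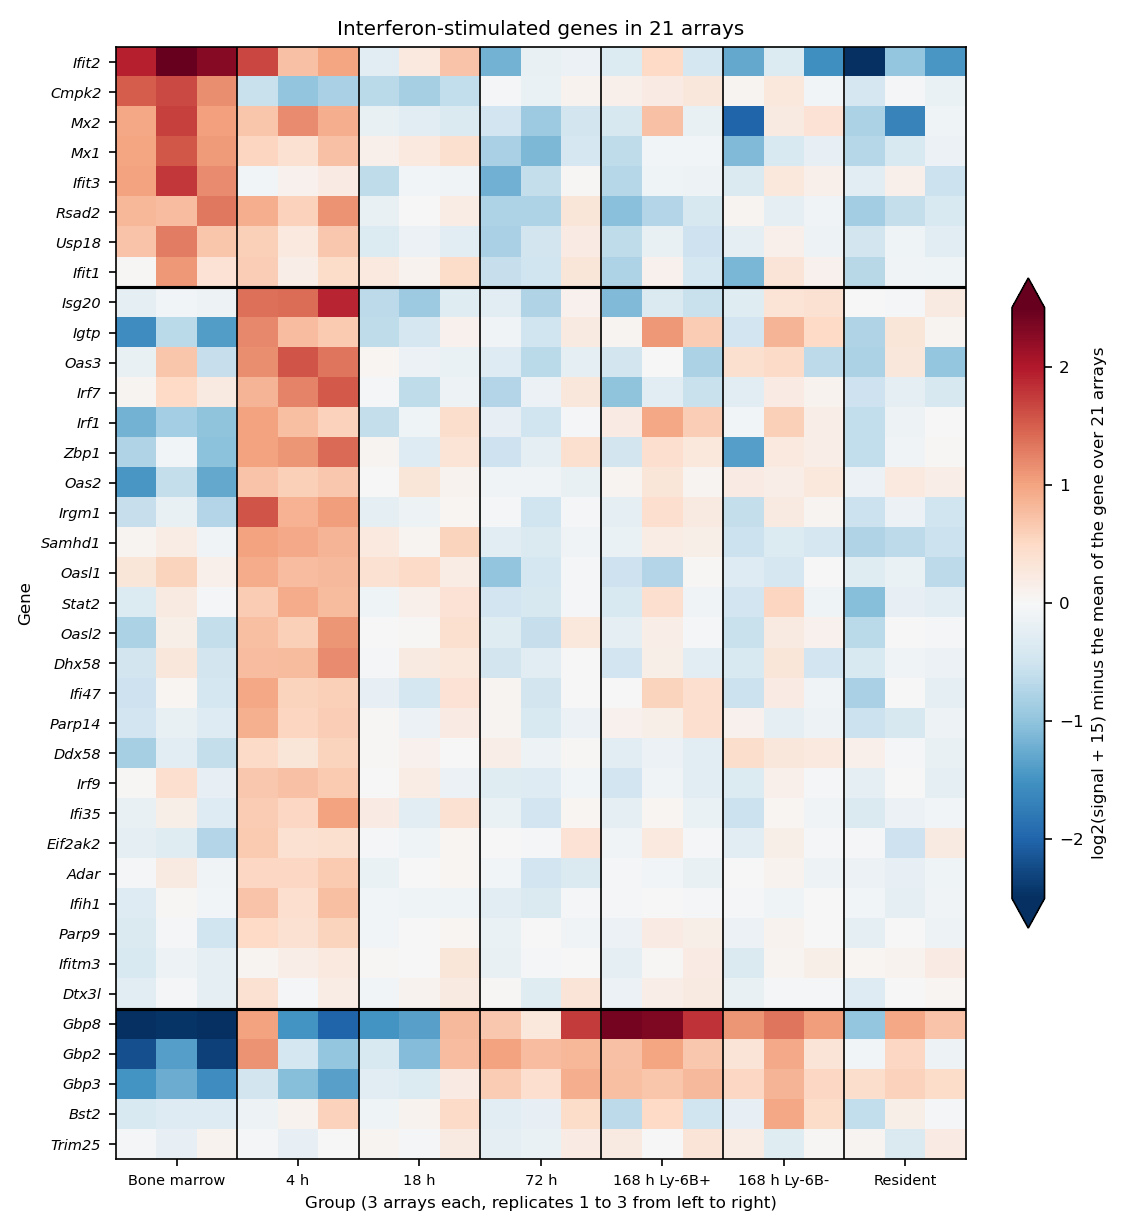
Heat map of 37 interferon-stimulated genes (rows) in 21 arrays (columns, 3 in each of 7 groups), coloured by log2(signal + 15) minus the gene's mean over all arrays. Rows are ordered by the group with the highest mean: 8 genes peak in bone marrow monocytes, 24 in 4 h monocytes and 5 in other groups. Of all genes tested 23.6% peak in bone marrow and 19.1% at 4 h.

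The 4 h monocytes were compared with bone marrow monocytes, which asks how the cells in the inflamed cavity differ from marrow monocytes of untreated mice. Of the 37 genes 14 rose, beside 7.50% of all genes tested, and 2 fell, beside 14.5%. The arrays of the groups did not overlap for 27 genes that were higher (20.1% of all genes) and 5 that were lower (34.6%). The median difference was 0.83 for the set and -0.14 for all genes. Those that rose were Irf1, Parp14, Oas2, Oas3, Oasl2, Isg20, Ddx58, Dhx58, Zbp1, Gbp2, Gbp8, Igtp, Irgm1 and Ifi47. Ifit3 and Cmpk2 fell. A further 11 genes were higher and 1, Mx1, was lower with an adjusted p under 0.05 and a difference short of a doubling. With no minimum fold 25 of the 37 were thus higher and 3 lower, beside 5669 of all 12169 genes called either way.

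Among the transcription factors, Irf1, which is induced by interferon gamma and activates many of the other genes, rose from 3570.3, 4493 and 4061 in bone marrow to 16428, 13805 and 12233 at 4 h. Its difference was 1.80 ± 0.24 (adjusted p = 2.11e-06). Irf7, the amplifier of type I interferon production, read 2201, 2959 and 2449.6 and 3772, 4949 and 6118, without overlap, and its difference of 0.94 ± 0.24 fell just short of a doubling. The partners of the ISRE-binding complex differed by 0.61 ± 0.15 for Irf9 (adjusted p = 0.00251) and 0.83 ± 0.26 for Stat2 (adjusted p = 0.0124).

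The enzymes that act on RNA and nucleotides split. Isg20, an exonuclease that degrades viral RNA, rose from 495, 565 and 541 to 1549.8, 1567 and 2241, a difference of 1.69 ± 0.23 (adjusted p = 4.24e-06). Oas2, which makes the 2',5'-linked oligoadenylates that activate RNase L, rose from 1361, 2486 and 1541 to 6224, 5677 and 6038, by 1.78 ± 0.16 (adjusted p = 1.27e-08). Its relatives Oas3 and Oasl2 rose by 1.38 ± 0.33 and 1.24 ± 0.26, while Oasl1 differed by 0.51 ± 0.22 (adjusted p = 0.072). Samhd1, which hydrolyses deoxynucleotides, read 10811 ± 1014 in bone marrow against 19969.8 ± 1101 at 4 h and differed by 0.89 ± 0.12 (adjusted p = 5.23e-06). Cmpk2, a mitochondrial nucleotide kinase, went the other way, from 3719, 4083 and 2882 in bone marrow to 871, 641 and 724 at 4 h. Every 4 h array lay below every bone marrow array, with a difference of -2.23 ± 0.15 (adjusted p = 1.7e-10). Rsad2, the antiviral enzyme viperin, whose gene neighbours Cmpk2, showed 1986, 1913 and 2787 and 2113, 1681 and 2461, with overlap and a difference of -0.09 ± 0.24 (95% interval -0.60 to 0.42).

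Of the 3 genes for IFIT proteins, which bind foreign RNA ends, none rose and 1 fell. Ifit3 fell from 1013, 1711 and 1138 to 469, 534 and 575, a difference of -1.24 ± 0.28 (adjusted p = 0.000906). Ifit2 read 1251, 1833 and 1575 in bone marrow against 1041, 533 and 637 at 4 h, without overlap, and its difference of -1.10 ± 0.48 missed the threshold (adjusted p = 0.0654). Ifit1 overlapped between the groups, with 409.5 ± 168 and 373 ± 60.3. The call of Ifit3 was lost under quantile normalization (-0.90) and with a common array median (-0.87), and also without bone marrow replicate 2 and 4 h replicate 1 together (-0.94). In all 3 fits Ifit3 stayed lower at 4 h with an adjusted p under 0.05, and only the doubling was missed.

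Of 6 sensors and double-stranded RNA proteins 3 rose. Zbp1, a sensor of left-handed nucleic acid that can start cell death, rose from 416, 673 and 339 to 1441, 1538 and 1917, by 1.79 ± 0.36 (adjusted p = 0.000297). Ddx58, which encodes the RNA helicase RIG-I, rose by 1.01 ± 0.13 and Dhx58, the related helicase LGP2, by 1.12 ± 0.22. Ifih1, the helicase MDA5, differed by 0.76 ± 0.11, the kinase Eif2ak2, which halts translation, by 0.90 ± 0.19, and the editing enzyme Adar by 0.53 ± 0.12, all with an adjusted p under 0.05 and no overlap. Among the Isg15 and ubiquitin genes, Parp14, an ADP-ribosyltransferase, rose by 1.01 ± 0.15 and Parp9, which pairs with the ubiquitin ligase Dtx3l, differed by 0.78 ± 0.12. Dtx3l itself differed by 0.36 ± 0.16 (adjusted p = 0.0636) and Usp18, which removes Isg15 from proteins and damps the type I receptor, by -0.39 ± 0.21 (adjusted p = 0.146). Ifi35, a protein that binds other interferon-induced factors, differed by 0.83 ± 0.19. The membrane proteins that hold viruses back stayed within a doubling, with 0.40 ± 0.13 for Ifitm3 and 0.52 ± 0.31 for Bst2.

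Several calls of this comparison sat close to the doubling and were lost without a single array. Ddx58 differed by 0.88 and 0.99 without bone marrow replicate 1 or 3, and by 0.99 and 0.96 without 4 h replicate 1 or 3. Dhx58 differed by 0.99 and 0.995 without the same bone marrow arrays and by 0.99 without 4 h replicate 3. Ifi47, an IRG protein, differed by 0.91, 0.94 and 0.88 without bone marrow replicate 1 or 3 or 4 h replicate 1. The values for Parp14 were 0.94 without bone marrow replicate 1 and 0.91 without 4 h replicate 1. Other settings ended calls too: quantile normalization those of Parp14 (0.92) and Ifi47 (0.90), the Gapdh ratio as a covariate that of Parp14 (0.993), and an offset of 60 (0.98) or the mean of all probe sets (0.70) that of Ddx58. In all of these the genes stayed higher at 4 h.

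Of 8 GTPases 5 rose. Irgm1, an IRG protein that regulates the others and autophagy, rose from 1170.3, 1539 and 1044 to 5241, 3189 and 3609, by 1.66 ± 0.23 (adjusted p = 3.46e-06). Igtp, also called Irgm3, rose from 1554, 2858 and 1740.5 to 10553, 7836 and 7241, by 2.08 ± 0.34 (adjusted p = 2.86e-05). Both sets of 4 h arrays lay wholly above bone marrow. Gbp2, a guanylate-binding protein that coats vacuoles of pathogens, read 993, 1752 and 899.7 in bone marrow against 9960.2, 3401 and 2351 at 4 h, so that replicate 1 stood far above the other 4 h arrays. It rose by 1.88 ± 0.42 over all arrays and by 1.27 without that replicate (adjusted p = 0.0093). Gbp8 read 17.2, 50.7 and 30.5 and 700.2, 112 and 74.5, a rise of 2.13 ± 0.66 that was lost without replicate 1 of 4 h (1.22, adjusted p = 0.111). Gbp3 overlapped between the groups, with 2078, 2493 and 2015 and 4268, 2825 and 2283. For the GTPases Mx1 and Mx2 the differences were -0.65 ± 0.23 (adjusted p = 0.025) and -0.31 ± 0.47 (adjusted p = 0.634).

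**Figure D2:**
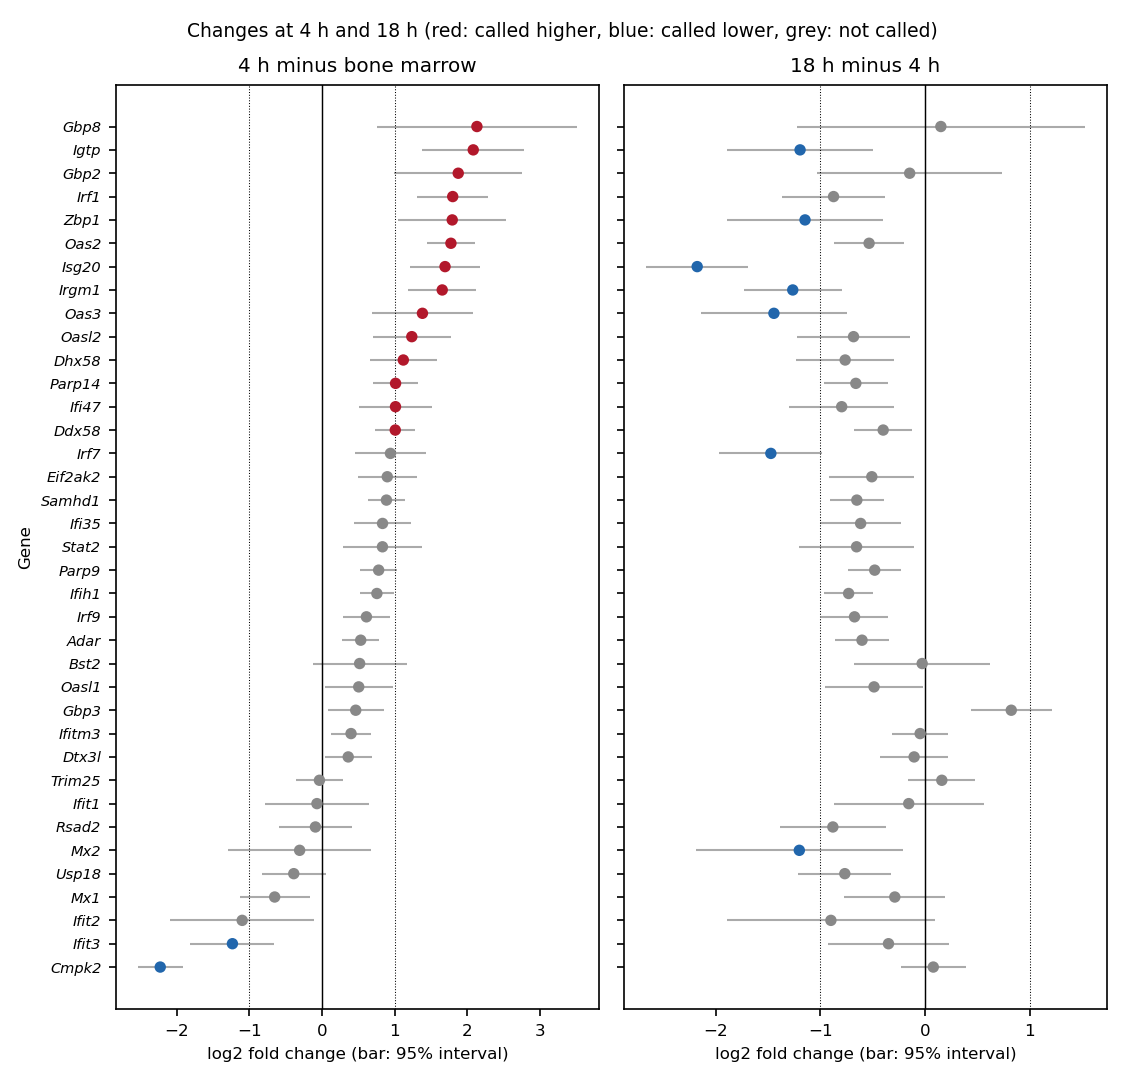
Difference in log2(signal + 15) for each of the 37 genes at 4 h minus bone marrow (left) and at 18 h minus 4 h (right), with 95% intervals from limma, 3 arrays a group. Red points rose and blue points fell by the call rule and grey points were not called: 14 rose and 2 fell on the left, none rose and 7 fell on the right.

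The 18 h monocyte/macrophages were compared with the 4 h cells to follow the genes through the first day. None of the 37 rose by limma's test, beside 10.9% of all genes, and 7 fell, beside 4.56%. At an unadjusted p under 0.05, 26 of the 37 differed, beside 46.9% of all genes. Without 4 h replicate 1, 1 gene rose and 6 fell. The arrays did not overlap for 26 genes that were lower (17.1% of all genes) and for 1 that was higher (33.0%), which was Gbp3. The median difference was -0.65 for the set and 0.14 for all genes. Those that fell were Irf7, Isg20, Oas3, Zbp1, Mx2, Igtp and Irgm1. The median over all genes tested lay between 8.71 and 8.78 on the log2 scale in the 4 h arrays, between 9.01 and 9.08 in those of 18 h and between 9.09 and 9.11 in bone marrow, and with every array set to a common median 14 of the 37 fell and again none rose. The Gapdh 3'/5' ratio, a sign of RNA quality, was 2.47 to 2.70 in the 4 h arrays and 1.64 to 2.12 in those of 18 h, and with that ratio as a covariate 14 fell. Its part in the result was not tested beyond that fit. The 4 h arrays enter this comparison and the one with bone marrow with opposite sign, so those comparisons are not independent.

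Isg20 fell furthest, from 1549.8, 1567 and 2241 to 369, 309 and 472, a difference of -2.18 ± 0.23 on the log2 scale (adjusted p = 3.24e-07), and its 18 h mean of 383 ± 82.4 lay below the bone marrow mean of 534 ± 35.5. Irf7 moved from 3772, 4949 and 6118 to 2024, 1349 and 1927, a difference of -1.47 ± 0.24 (adjusted p = 4.03e-05). Oas3 moved from 1850.0, 2446 and 2092 to 846, 735 and 731, a difference of -1.44 ± 0.33. None of the 3 overlapped between the groups. Irgm1 read 1495, 1595 and 1802 at 18 h, a difference of -1.26 ± 0.23 (adjusted p = 0.000131), and Igtp read 2943, 3436 and 4919.5, a difference of -1.19 ± 0.34 (adjusted p = 0.00714). These IRG proteins guard against vacuolar pathogens. Zbp1 differed by -1.15 ± 0.36, but by -1.03 (adjusted p = 0.0567) without 4 h replicate 3 and by -0.97 (adjusted p = 0.0683) without 18 h replicate 2. Mx2 read 313 ± 55.6 and 126 ± 8.16 and differed by -1.20 ± 0.47 with an adjusted p of 0.0493. Leaving out any 1 of the 6 arrays lost that call, with differences of -1.32, -1.07 and -1.21 without 4 h replicates 1 to 3 and of -1.24, -1.20 and -1.16 without those of 18 h, and adjusted p up to 0.136.

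The decline did not hold for every gene. By sign alone 33 of the 37 were lower at 18 h and 4 were higher. With an adjusted p under 0.05 and no minimum fold 23 were lower and 1 higher. That rule called 4872 of all 12169 genes either way. Gbp3 and Cmpk2 were among the 4 that were higher by sign. Gbp3 read 4268, 2825 and 2283 at 4 h and 4851, 4640.2 and 6833 at 18 h, higher in every 18 h array, with a difference of 0.82 ± 0.19 (adjusted p = 0.00121) that stayed under a doubling. Cmpk2 remained near its 4 h level, with 801, 714 and 836 and a difference of 0.08 ± 0.15 (95% interval -0.23 to 0.39).

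**Figure D3:**
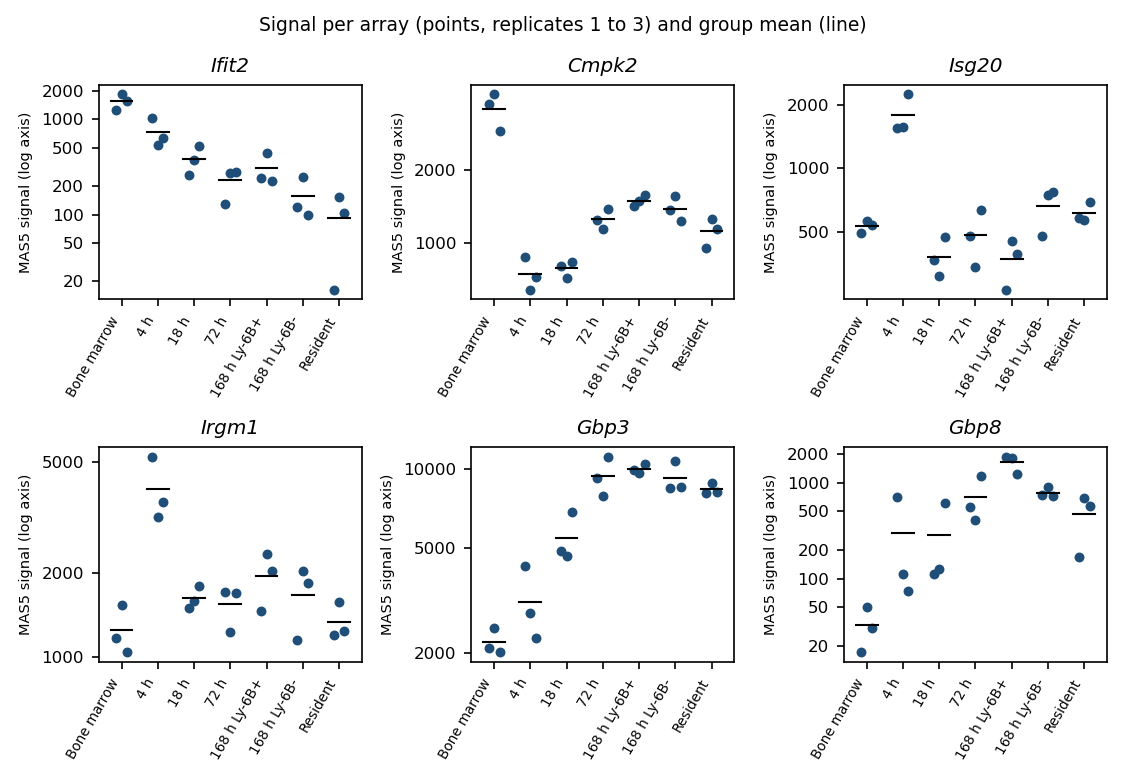
Array signals (log axis) of 6 genes in the 7 groups, with a point for each of 3 arrays and a line at the group mean. Ifit2 and Cmpk2 are highest in bone marrow, Isg20 and Irgm1 at 4 h, and Gbp3 and Gbp8 from 72 h on, with means of 9411 ± 1621 and 717 ± 410.3 at 72 h against 2195 ± 259.6 and 32.8 ± 16.8 in bone marrow (SD).

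The resident macrophages and bone marrow monocytes of untreated mice differ in cell type and in tissue, and the comparison asks what each carries without zymosan. In the resident cells 5 of the 37 genes were higher, beside 12.9% of all genes tested, and 7 were lower, beside 10.2%. The arrays did not overlap for 8 that were higher (29.9%) and 12 that were lower (26.2%), and the median difference was -0.01 for the set and 0.05 for all genes. The higher genes were Oas2, Gbp2, Gbp3, Gbp8 and Igtp, of which 4 are GTPases. The lower ones were Ifit2, Ifit3, Usp18, Rsad2, Cmpk2, Mx1 and Mx2.

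Ifit2, of the IFIT family, spanned 4.16 between its highest and lowest group, a range that only Gbp8, at 5.15, exceeded in the set. It read 1251, 1833 and 1575 in bone marrow, 1041, 533 and 637 at 4 h, 262, 375 and 524 at 18 h, 131, 276 and 283 at 72 h and 16.4, 155 and 105 in resident macrophages. The resident cells differed from bone marrow by -4.16 ± 0.48 (adjusted p = 3.65e-07), and by -3.44 without resident replicate 1, whose signal was the lowest. Ifit3, its neighbour and partner, had 403, 541 and 334 in the resident cells, a difference of -1.55 ± 0.28. Cmpk2 and Rsad2 differed by -1.66 ± 0.15 and -1.58 ± 0.24. Mx1 had 2155, 3203 and 2258 in bone marrow and 656, 823 and 969 in resident cells, a difference of -1.61 ± 0.23 (adjusted p = 7.11e-06), and Mx2 differed by -2.09 ± 0.47. For each of these 6 genes every resident array lay below every bone marrow array. Usp18 differed by -1.17 ± 0.21, and by -0.98 without bone marrow replicate 2, which ended its call. Neutrophil markers were lowest in that same array and highest in bone marrow replicate 3, and their part in the result was not tested.

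The guanylate-binding proteins ran the other way. Gbp3 read 2078, 2493 and 2015 in bone marrow and 8050.2, 8830.0 and 8175 in resident macrophages, a difference of 1.93 ± 0.19 (adjusted p = 2.97e-08). Gbp8 read 17.2, 50.7 and 30.5 and 169, 685 and 572, a difference of 3.20 ± 0.66, which became 3.81 without resident replicate 1 and 2.37 with 60 in place of 15 added to the signal. Gbp2 read 4350.5, 6547 and 4214 in the resident cells and differed by 2.07 ± 0.42. Their resident arrays lay above bone marrow in all 3 genes. Near-identical copies of the guanylate-binding proteins can share probes, and a probe set that carries the symbols of both Gbp8 and Gbp4 was not used, so the levels of single copies are uncertain. Igtp overlapped between the groups and differed by 1.09 ± 0.34. That call was lost without bone marrow replicate 1 (0.92) or 3 (0.996) and without resident replicate 2 (0.87) or 3 (0.99), and with the Gapdh 3'/5' ratio, a sign of RNA quality, as a covariate (0.87). Oas2, the other gene that was higher, read 3403, 4467 and 4229.7 and differed by 1.20 ± 0.16 (adjusted p = 2.95e-06).

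From 18 h to 72 h few genes of the set differed. None of the 37 rose by limma's test, beside 9.03% of all genes, and 1 fell, beside 3.46%. At an unadjusted p under 0.05, 8 differed, beside 39.4% of all genes. Without 18 h replicate 3 the direction of the calls turned, with 2 genes called higher and 0 lower, and Mx1 was no longer among them. The arrays did not overlap for 3 genes that were higher (22.8% of all genes) and 6 that were lower (18.3%). The median difference was -0.17 for the set and 0.03 for all genes. The gene that fell was Mx1, from 1186, 1276 and 1431 to 610.1, 486 and 808, a difference of -1.04 ± 0.23 (adjusted p = 0.00158). Its difference was -0.97 without 18 h replicate 3 and -0.87 without 72 h replicate 2, the array with B cell and mast cell markers, and either ended the call. Cmpk2 and Gbp3 were higher at 72 h in every array, by 0.67 ± 0.15 (adjusted p = 0.00156) and 0.80 ± 0.19 (adjusted p = 0.0023), short of a doubling. Oasl1 and Samhd1 were lower in every array, with differences of -0.84 ± 0.22 and -0.53 ± 0.12. Gbp2 differed by 1.11 ± 0.42 and Gbp8 by 1.57 ± 0.66, neither past the threshold (adjusted p = 0.0535 and 0.0797), with replicate 3 of 18 h well above its fellows at 3518, 2143 and 7792 for Gbp2 and 112, 125 and 615 for Gbp8.

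The macrophages of the late phase were compared with one another and with the resident cells, to see where they stood once inflammation had waned. Between the Ly-6B+ and Ly-6B- macrophages of 168 h none of the 37 genes was called by limma, beside 1.54% of all genes called higher and 2.41% called lower in Ly-6B+ cells, and 6 differed at an unadjusted p under 0.05, beside 20.7% of all genes. The arrays did not overlap for 2 genes that were higher (11.3%) and 4 that were lower (13.8%). Ddx58 read 1278, 1392 and 1280.1 in Ly-6B+ and 2111, 1882 and 1842 in Ly-6B- cells, a difference of -0.56 ± 0.13 (adjusted p = 0.00924). Isg20 read 268, 453 and 395 and 478, 753 and 771, a difference of -0.82 ± 0.23 (adjusted p = 0.0336). Samhd1 was higher in the Ly-6B+ cells, by 0.49 ± 0.12 (adjusted p = 0.0157). None of the 3 overlapped between the gates, and all 3 differences were under a doubling. Gbp8 read 1870.4, 1790.1 and 1244 in Ly-6B+ and 751, 892 and 719 in Ly-6B- cells, also without overlap, but its difference of 1.02 ± 0.66 did not pass the test (adjusted p = 0.411, 95% interval -0.35 to 2.40).

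Against the resident macrophages of untreated mice, Ly-6B+ cells had 1 gene higher, beside 1.98% of all genes, and none lower, beside 2.40%, and 10 differed at an unadjusted p under 0.05, beside 21.6% of all genes. The arrays did not overlap for 10 genes that were higher (12.2%) and 1 that was lower (15.7%). The gene called was Ifit2, which read 244, 449 and 227 in Ly-6B+ and 16.4, 155 and 105 in resident cells, a difference of 1.83 ± 0.48 (adjusted p = 0.0164). The call was lost without Ly-6B+ replicate 2 (1.54, adjusted p = 0.0912) and without resident replicate 1 (1.10, adjusted p = 0.125), and when the 6 arrays were compared alone (adjusted p = 0.0761). Samhd1, Irf1 and Parp14 were higher in every Ly-6B+ array, by 0.70 ± 0.12 (adjusted p = 0.000726), 0.85 ± 0.24 (adjusted p = 0.0247) and 0.57 ± 0.15 (adjusted p = 0.0146), each under a doubling. In the Ly-6B- cells none of the 37 was called against resident cells, beside 0.0411% of all genes higher and 0 lower, and 3 had an unadjusted p under 0.05, beside 3.56% of all genes. Their arrays did not overlap for 4 genes that were higher (4.26%) and none that were lower (4.35%). At 72 h none was called against resident cells either, beside 0.707% higher and 0.0247% lower, with 2 at an unadjusted p under 0.05, beside 10.7% of all genes. There 2 genes were higher (6.31%) and 1 lower (9.07%) without overlap. The median differences from the resident cells were 0.16 for Ly-6B+, 0.19 for Ly-6B- and 0.05 for 72 h, beside -0.03, -0.01 and -0.04 for all genes, and the 3 comparisons share the resident arrays.

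Between 72 h and 168 h none of the 37 was called in Ly-6B+ cells, beside 0.674% of all genes higher and 1.87% lower, nor in Ly-6B- cells, beside 0.0575% and 0.452%. At an unadjusted p under 0.05, 5 and 3 differed, beside 15.4% and 10.3% of all genes. The arrays did not overlap for 6 genes that were higher (9.68%) and 1 that was lower (9.57%) in Ly-6B+ cells, and for 2 higher (7.12%) and none lower (5.75%) in Ly-6B- cells. Irf1 was higher in every Ly-6B+ array, with 7060.1, 5790.0 and 7867 at 72 h and 9409.9, 16001 and 12567 at 168 h, a difference of 0.85 ± 0.24 (adjusted p = 0.0384). Igtp ran from 4306 ± 1063 at 72 h to 7242 ± 2483 and 5997 ± 2502 in the Ly-6B+ and Ly-6B- cells, and neither difference passed the test. The order of the group means for Gbp3 was bone marrow, 4 h, 18 h, resident, Ly-6B-, 72 h and Ly-6B+, of which the last 4 lay between 8352 ± 419 and 9988 ± 419.5 and did not pass the test in any pair compared. For Irf1 the order was bone marrow, 72 h, resident, 18 h, Ly-6B-, Ly-6B+ and 4 h, with the Ly-6B+ mean at 12659 ± 3297 and the 4 h mean at 14155 ± 2119, a pair whose difference was not tested.

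Within a group the genes of the set tended to be high or low on the same array. In bone marrow replicate 2 gave the highest of the 3 signals for 33 of the 37 genes, beside 30.2% of all genes tested. The highest array was replicate 3 for 27 genes at 18 h and 29 at 72 h, and replicate 2 for 27 in Ly-6B+ and 25 in Ly-6B- cells, beside 35.8%, 38.7%, 31.2% and 29.1% of all genes. At 4 h replicate 3 led for 17 and replicate 1 for 16. The median deviation of the set from its group mean was 0.27 in bone marrow replicate 2 and 0.25 in replicate 3 of 72 h, and it was -0.22 and -0.21 in replicate 1 of Ly-6B+ and Ly-6B- cells, where the same median over all genes stayed between -0.04 and 0.03 on every array. The Gapdh 3'/5' ratio was the lowest of its group in the leading arrays of bone marrow (2.17), Ly-6B+ (2.17) and Ly-6B- cells (1.94), but the highest of its group in that of 18 h (2.12). Its part in the result was not tested. A count over the set is therefore not a count of independent genes.

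**Figure D4:**
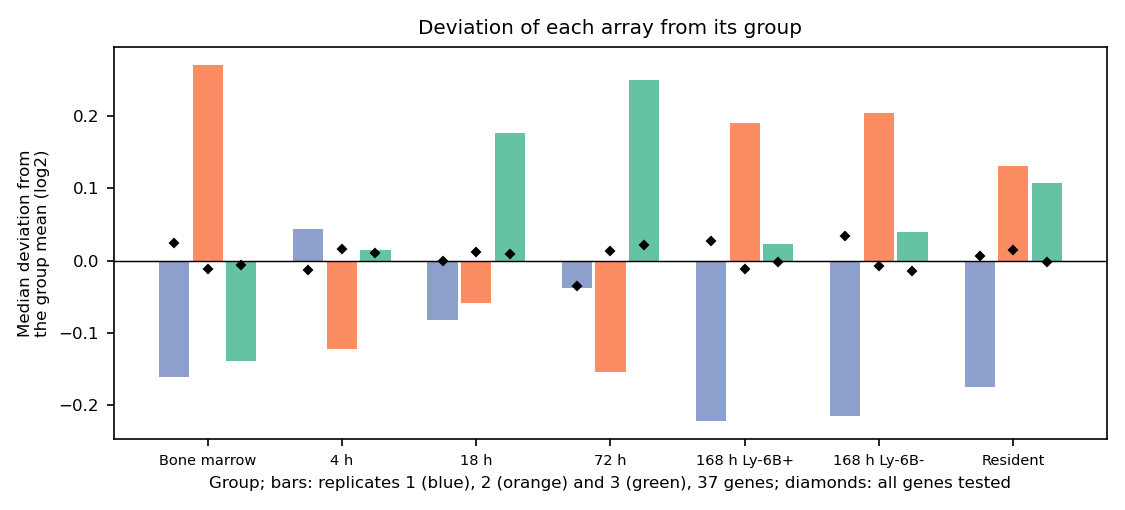
Median deviation from the group mean, in log2(signal + 15), on each of 21 arrays for the 37 genes (bars) and for all genes tested (diamonds). The bars reach 0.27 in bone marrow replicate 2 and -0.22 in Ly-6B+ replicate 1, while the diamonds lie between -0.04 and 0.03.

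Other genes of the interferon pathway were taken from lists, with all ligands and receptors and at most 4 other genes a list named for the largest called differences. The ligands were dim. Of 21 listed interferon genes 10 had a probe set and 3, Ifna1, Ifng and Ifnz, passed the filter. None of those was called by limma in the 10 comparisons, and 2 of the 30 tests had an unadjusted p under 0.05. Ifnb1 stayed between 32.1 and 102.4 and Ifng between 1.98 and 126.2 over the 21 arrays, in most arrays below the table's median of 80.6. Ifng read 104.6, 62.5 and 33.8 at 4 h, and its highest signal was in 72 h replicate 2, the array with B cell and mast cell markers. The receptors were better seen. Ifnar1, a chain of the type I receptor, rose from 1039, 1126 and 961 in bone marrow to 2220.1, 2259 and 2210.3 at 4 h, by 1.09 ± 0.11 (adjusted p = 5.47e-08), and Ifnar2, the other chain, rose from 2301, 2772 and 2489 at 18 h to 4697, 6164 and 6774 at 72 h, by 1.20 ± 0.18. Il10rb, shared by the receptors for interleukin-10 and interferon lambda, rose by 1.37 ± 0.10 at 4 h and was higher in resident cells than in bone marrow by 1.96 ± 0.10. Ifngr1, Ifngr2 and Ifnlr1 were called in none of the comparisons.

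Of 9 kinases, STATs and IRFs tested, 2 rose and 2 fell at 4 h, beside 7.50% and 14.5% of all genes. Jak2, a kinase of the interferon gamma receptor, rose from 2653, 2833 and 2664 to 7311, 6879.6 and 7713, by 1.42 ± 0.09, and differed by -1.72 ± 0.09 at 18 h from 4 h. Irf8, which guides monocyte development, fell from 17966, 16075 and 13793 to 8186, 5011 and 3094, a difference of -1.65 ± 0.27. Irf4 read 556 ± 73.0, 226 ± 7.18 and 1900.1 ± 193 in bone marrow, at 4 h and at 18 h, a fall and then a rise of 2.98 ± 0.14. Irf2, which can compete with Irf1, was higher in resident cells than in bone marrow by 1.79 ± 0.24. Of 8 brakes tested 2 rose at 4 h, beside the same 7.50%, and Socs3 and Cish, which these were, fell at 18 h, beside 4.56%. Socs3, an inhibitor of Jak kinases, read 635, 1087 and 971 in bone marrow, 17526, 17026 and 18325 at 4 h and 3431, 7178 and 10316 at 18 h, with differences of 4.31 ± 0.27 and -1.47 ± 0.27, and Cish rose by 2.59 ± 0.18 and then differed by -2.16 ± 0.18. Of 11 sensing genes 4 rose at 4 h and none fell, beside 7.50% and 14.5%. Sting1, the adaptor of cytosolic DNA sensing, read 1635 ± 342, 4604 ± 583, 1801 ± 345 and 559 ± 35.3 through 72 h. The kinase Ikbke rose by 1.90 ± 0.16 at 4 h. Between resident cells and bone marrow, Tlr3, a receptor for double-stranded RNA, was higher by 3.26 ± 0.23, and Cgas, which makes the messenger that Sting1 binds, differed by -1.94 ± 0.17.

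Other GTPases of these families had 4 measured genes of 12 listed. All 4, Gbp6, Gbp7, Irgm2 and Iigp1, were higher in resident cells than in bone marrow, beside 12.9% of all genes. Their differences were 3.34 ± 0.64, 1.68 ± 0.22, 2.07 ± 0.26 and 4.44 ± 0.98. In the set Gbp2, Gbp3, Gbp8 and Igtp were higher there too, while Irgm1 and Ifi47 were not called. Iigp1, an IRG protein that attacks parasite vacuoles, read 117, 123 and 117 in bone marrow, 7746, 315 and 122 at 4 h, 71.9, 97.2 and 632 at 18 h, 1917, 1541 and 5031 at 72 h and 1413, 3985 and 4328 in resident cells. Replicate 1 of 4 h and replicate 3 of 18 h stood apart, as for Gbp2 and Gbp8. Gbp6 read 2275, 228 and 202 at 4 h, with a rise over bone marrow of 2.61 ± 0.64 that became 1.50 (adjusted p = 0.0143) without replicate 1 and 3.20 without replicate 3. Gbp7 rose by 1.23 ± 0.22, and differed by 0.86 without that array, which ended the call. Irgm2 rose by 1.32 ± 0.26 and Iigp1 was not called, where 7.50% of all genes rose. Beside 9.03% of all genes, Gbp6, Irgm2 and Iigp1 rose from 18 h to 72 h, by 2.03 ± 0.64, 1.03 ± 0.26 and 3.74 ± 0.98. Of these, Gbp6 lost its call without 18 h replicate 1 (1.76), 18 h replicate 2 (1.65) or 72 h replicate 3 (1.74), and it became 2.68 without 18 h replicate 3. Irgm2 lost its call without 18 h replicate 2 (0.79) and without 72 h replicate 1 (0.98) or 3 (0.82), and Iigp1 became 4.65 without 18 h replicate 3.

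Of 47 other interferon-stimulated genes tested, 12 rose and 2 fell at 4 h, beside 7.50% and 14.5% of all genes. At 18 h 2 rose and 11 fell, beside 10.9% and 4.56%, and 9 were higher and 6 lower in resident cells than in bone marrow, beside 12.9% and 10.2%. Ifitm1, kin of Ifitm3, read 357, 539 and 410.1 in bone marrow, 3978, 5762 and 5941 at 4 h and 184, 512 and 245 at 72 h, with a rise of 3.54 ± 0.30 at 4 h and a difference of -2.71 ± 0.30 from 18 h to 72 h. Ifi27 read 789 ± 86.1 at 4 h, 6209.9 ± 1749 at 72 h and 7063 ± 1207 in resident cells. Ms4a4c, which also stood in the list of classical monocyte markers, was the gene with the widest difference between resident cells and bone marrow, -7.25 ± 0.32. Of 15 chemokine and antigen-processing genes linked to interferon gamma, 6 rose and none fell at 4 h, beside 7.50% and 14.5% of all genes, and none rose and 4 fell at 18 h, beside 10.9% and 4.56%. Cxcl10, a ligand of Cxcr3, read 600.2, 725 and 505, 8825, 4524 and 3972 and 401, 539 and 744 in bone marrow, at 4 h and at 18 h, with differences of 3.13 ± 0.40 and -3.28 ± 0.40, and Cxcl11 differed by 3.32 ± 0.56 and -2.77 ± 0.56. Cxcl9 read 3148, 588 and 262 at 4 h, again with replicate 1 far above, and its rise of 3.47 ± 0.75 became 2.49 without that array and 4.25 without replicate 3. Its difference at 18 h of -2.22 ± 0.75 became -2.99 without 4 h replicate 3 and lost its call without 4 h replicate 1 (-1.23, adjusted p = 0.19) or 18 h replicate 2 (-1.91, adjusted p = 0.0876). Ly-6B+ macrophages of 168 h had 5 of these 15 genes higher than resident cells, namely Cxcl9, Cxcl10, Ccl5, Ciita and Cd274, the last 2 named after their values were seen. Of all genes 1.98% were higher in that comparison. In Ly-6B- cells none of these 5 was called against resident cells, beside 0.0411% of all genes higher. Cxcl9, Cxcl10, Ccl5, Ciita and Cd274 differed there by 2.09, 1.33, 1.32, 0.15 and 0.99. Cxcl10, Ccl5 and Cd274 were higher without overlap, as were 4.26% of all genes. Between the gates Ccl5 and Ciita, alone of these 5, were called higher in Ly-6B+ cells, beside 1.54%. That call of Ccl5 was lost without Ly-6B+ replicate 2 or Ly-6B- replicate 1. Ccl5 read 164, 281 and 161 in Ly-6B+ and 15.1, 10.4 and 8.67 in resident cells, and 211, 481 and 498 at 72 h. Classical monocyte markers summed to between 45539 and 55522 in Ly-6B+ and between 7346 and 7623 in resident cells, and their part in the result was not tested.

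Probe sets of one gene did not always tell the same course. Of the 37 genes 14 had further probe sets, 24 in all, and 19 of the 24 had the sign of the representative one at 4 h against bone marrow. Trim25, a ubiquitin ligase that acts with RIG-I, was flat by its brightest probe set (-0.04 ± 0.15, 95% interval -0.36 to 0.28), but another read 389, 479 and 431 in bone marrow against 1087, 1200.4 and 1406 at 4 h, a difference of 1.47. For Samhd1 1 further set differed by -0.16 where the representative one differed by 0.89. The representative set of Gbp2 is of a class that can read related transcripts, and the second set of that gene differed by 1.76 beside 1.88.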

How the data were processed

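Whole-genome Affymetrix arrays of 21 sorted cell samples were used, 3 in each of 7 groups taken from the labels. The deposited intensities are MAS5 signals that the authors computed with Affymetrix Expression Console 1.2, per the submitters' processing notes. The labels give 100 ng of RNA per sample with a two-cycle labelling, which can favour the 3' ends of transcripts. The 2% trimmed mean was equal on every array, so the values were scaled within arrays and a shift common to all genes cannot be seen.

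Of 45101 probe sets 34958 have 1 gene symbol in the platform annotation, 932 have several and 9211 are not listed there. From these signals log2(signal + 15) was computed, 15 being about the 20th percentile, and fitted over all 21 arrays with limma 3.58.1 in R 4.3.3 (lmFit, eBayes with a trend, 14 residual degrees of freedom), with Benjamini-Hochberg adjustment over 12169 genes in each of 10 comparisons. The procedure was tested on simulated data with noise drawn separately for each gene. That test cannot speak for genes that move together on an array, as those of the set did. The alternatives changed the offset, scaling, filter, probe set choice, variance model, RNA quality term, samples and a replicate block. Same-numbered arrays had correlations over 0.1 in all 3 pairs only between the 168 h gates (0.296, 0.276 and 0.178). The labels do not say whether these gates came from the same animals. All 3 correlations were also positive between 72 h and 18 h (0.114, 0.0886 and 0.195). Between resident cells and bone marrow they were 0.105, 0.0479 and 0.0838. Several other comparisons had positive values in all pairs too, some of them very small. The number of arrays limits the precision. The members, the lists and the 4 genes named per list were chosen with earlier results of these data known. All 39 genes of the set are named. Sequences are from RefSeq.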

Additional observations from a re-analysis of the deposited data

How the results depend on the processing

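The 37 calls of single genes were recomputed under 736 alternatives, of which 685 kept the call, 51 lost it and 0 reversed it. The following counts are members called. For 72 h minus 18 h, 1 in the report, they were 0 with an offset of 60 and with the Gapdh ratio as a covariate, 3 with quantile normalization, 2 each with array weights, the mean of all probe sets, a 75th percentile filter and the 6 arrays alone, and 5 with no minimum fold. For Ly-6B+ minus resident, 1 in the report, they were 2 with an offset of 60 and 4 with no minimum fold. For 18 h minus 4 h, 7 in the report, they were 14 with a common array median, 14 with the Gapdh ratio and 24 with no minimum fold. With no minimum fold they were 28 for 4 h minus bone marrow, 3 for Ly-6B+ minus Ly-6B- and 1 for Ly-6B+ minus 72 h. Of all 12169 genes that setting called 5669, 993 and 615 in the same comparisons. For 72 h minus 18 h, Ly-6B+ minus resident and 18 h minus 4 h it called 3702, 1110 and 4872 of them. For 18 h minus 4 h a common median called 1736 of all genes and the Gapdh ratio 2014, beside 1884 in the report. For 72 h minus 18 h, 1520 of all genes were called in the report, 1244 with an offset of 60 and 1481 with quantile normalization. Array weights called 1505 of them, the mean of all probe sets 1295, the 75th percentile filter 1098 and the 6 arrays alone 1491. With 6 arrays alone the gates of 168 h gave 1, beside 474 of all genes called. With a common median 21 rose and 1 fell at 4 h, where 14 rose and 2 fell in the report. Of all genes 2726 were called there with a common median and 2679 in the report. Leaving out 1 array gave 11 to 12 for resident minus bone marrow, 12 to 17 for 4 h minus bone marrow and 5 to 8 for 18 h minus 4 h. It gave 0 to 2 for 72 h minus 18 h and for Ly-6B+ minus resident, and 0 to 1 for the gates and for Ly-6B+ minus 72 h. Of all genes these fits called, in the same order, 2760 to 2829, 2609 to 2772, 1846 to 1920, 1455 to 1618, 433 to 519, 415 to 463 and 222 to 329. For 4 h minus bone marrow the lowest counts were 12 and 13, without bone marrow replicate 1 and 3, and for 18 h minus 4 h 5, without 4 h replicate 3 or 18 h replicate 2. Counts moved by over 1.5 times without 18 h replicate 3, 72 h replicate 2 or 3, Ly-6B+ replicate 1 or 2, Ly-6B- replicate 1 or resident replicate 1. With the replicate block the counts were 12 for resident minus bone marrow and 17 for 4 h minus bone marrow. They were 7 for 18 h minus 4 h and 1 for 72 h minus 18 h. Between the 168 h gates the block called 0 members, as in the report. Of all genes it called 495 there, beside 480 in the report. The causes of these changes were not tested. Signals near the offset limit what can be seen of the ligands.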
